A study of Rattus norvegicus with 12 samples.

Results

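The epidermal growth factor receptor (EGFR) ligands and the ERBB receptors were followed through tumor development in the rat esophagus. The members are the 5 ligand genes Ereg, Areg, Hbegf, Tgfa and Btc and the 3 receptor genes Egfr, Erbb2 and Erbb3, chosen by gene symbol in the platform annotation. All 8 were measured, by 11 of the 31042 probe sets tested, among 14217 named genes. Each array came from 1 sample of rat esophageal tissue, with 3 arrays in each of 4 groups. The control group received subcutaneous solvent, a 1 to 4 mixture of dimethyl sulfoxide and water. The other groups received N-nitrosomethylbenzylamine (NMBA), a nitrosamine that is known to cause squamous tumors in this organ, in doses of 0.3 mg per kg, and are labelled week 6 (early stage), week 15 (middle stage) and week 29 (late stage). Injections of 0.2 ml were given 3 times a week for 5 weeks. The source names call the same samples 6, 15 and 29 weeks after NMBA treatment, so whether weeks count from the first injection is not settled. The time at which controls were taken is a detail not given in the sources used here, as are strain, sex and age, so age and treatment cannot be told apart. The labels do not say that each array is a separate rat, and p-values then measure only the spread between these samples, which may be technical.

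EGFR and its relatives are receptor tyrosine kinases at the surface of epithelial cells. The ligands are made as membrane-anchored precursors that proteases cut free, and a bound receptor pairs with EGFR itself or with another ERBB receptor and starts the RAS, MAP kinase and PI3 kinase cascades. In squamous epithelium such as that of the esophagus, the pathway is known for driving keratinocyte proliferation, migration and wound repair, and EGFR is often overexpressed in human esophageal squamous carcinoma. ERBB2 binds no ligand and acts as a partner, and ERBB3, a receptor for neuregulins, has little kinase activity of its own.

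Values are log2 probe set signals as deposited, so a difference of 1 is a 2-fold change, and levels of different probe sets are not set against each other. All 9 measured epithelial markers and all 8 measured basal keratinocyte markers lay above the median of all probe sets, and Krt5 and Krt14, the basal keratins, stood at the 99.5th and 99.6th percentiles. Among suprabasal markers, Ivl (involucrin) was an exception, with log2 signals of 2.87 to 3.39. Of the 15 measured skeletal muscle markers, 14 lay above that median too, although the protocol removed the muscle layers. Acta1, skeletal muscle actin, had log2 signals of 14.03 to 14.71 over the 12 arrays. The exception was Myh7, with 3.39 to 7.99. Tnnt1, at 3.97 to 10.46, and Tnnc1, at 4.89 to 11.16, also ranged widely. The epithelial score is the mean log2 signal of Cdh1, Dsp, Jup, Pkp1, Pkp3, Perp, Epcam, Cldn4 and Esrp1. Its mean was 11.19 ± 0.18 in control arrays, 10.42 ± 0.12 in week 6 arrays, 11.59 ± 0.20 in week 15 arrays and 10.24 ± 0.51 in week 29 arrays (SD, n = 3 each). The skeletal muscle score, over 15 muscle genes, averaged 11.84 ± 0.31 in control, 12.37 ± 0.21 in week 6, 10.81 ± 0.73 in week 15 and 11.98 ± 0.08 in week 29 arrays. The GAPDH 3 prime minus 5 prime difference, larger in degraded RNA, averaged 0.40 ± 0.16 in control, 0.11 ± 0.04 in week 6, 0.40 ± 0.19 in week 15 and 0.17 ± 0.04 in week 29 arrays. In such bulk tissue, fewer cells of a type and less RNA per cell cannot be told apart.

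Of the 8 genes, 7 had their highest mean log2 signal at week 15, and the exception was Areg, whose control and week 15 means lay close together (week 15 minus control, -0.01). The lowest mean fell at week 6 for Ereg, Btc, Egfr, Erbb2 and Erbb3 and at week 29 for Areg, Hbegf and Tgfa. A moderated F test over the 4 groups (limma) called 7 of the 8 genes at an adjusted p under 0.05, all but Btc. The same test called 35.1% of all probe sets. Adjusted p-values ran from 0.000768 for Ereg to 0.0398 for Hbegf, and Btc had 0.585.

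**Figure D1:**
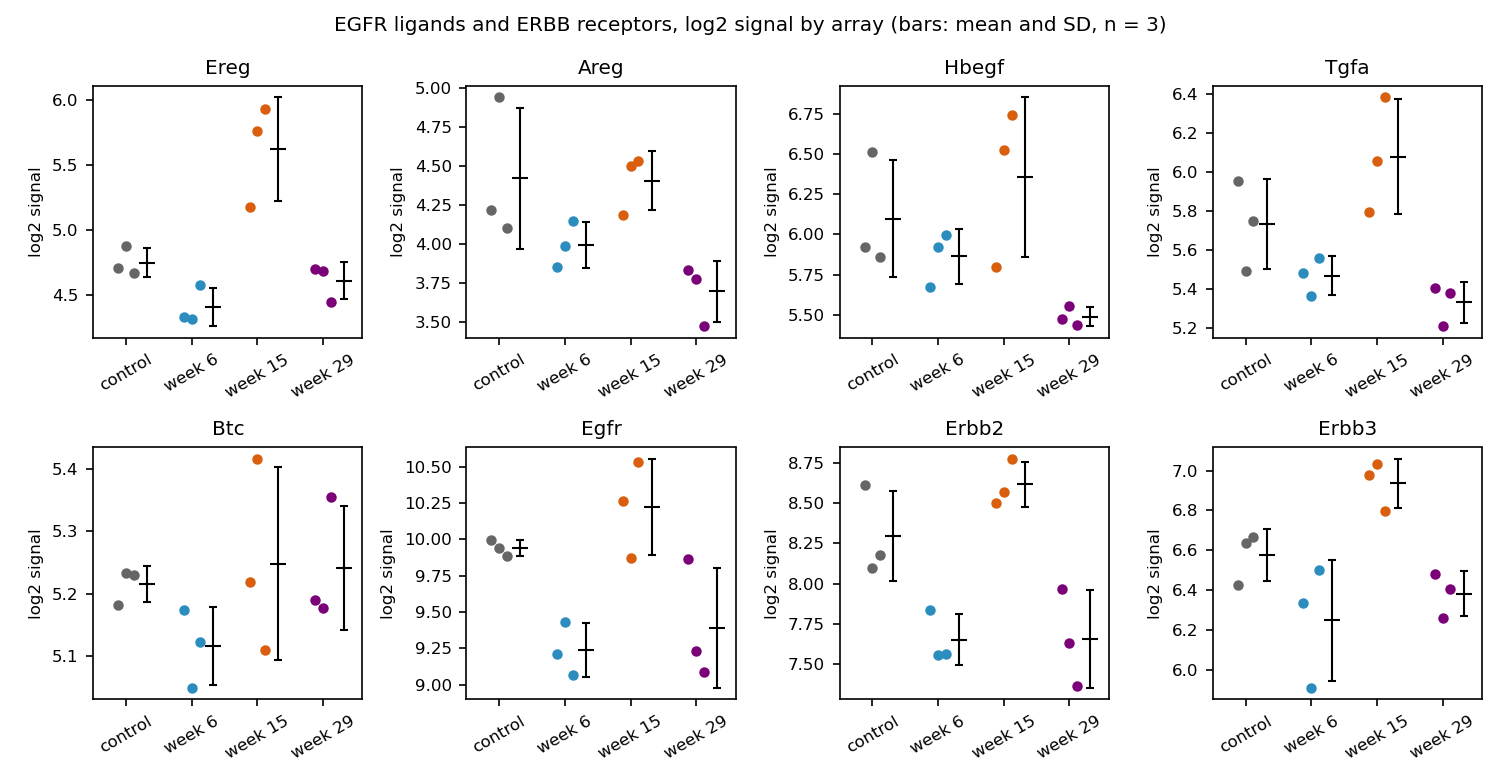
Log2 signal of the 8 genes on each array, for controls and weeks 6, 15 and 29 of NMBA, with the mean and SD of 3 arrays beside the points; each panel has its own vertical scale, which does not start at 0. Week 15 has the highest mean in every panel but that of Areg, and the points of Btc span 5.05 to 5.42.

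Ereg encodes epiregulin, a ligand of EGFR and ERBB4. Its log2 signal was 4.71, 4.88 and 4.67 in controls, 4.34, 4.31 and 4.58 at week 6, 5.18, 5.76 and 5.93 at week 15, and 4.71, 4.69 and 4.45 at week 29. Each week 15 array lay above every array of the other groups, whereas week 6 arrays lay below every control and week 29 arrays overlapped the controls. Ereg rose at week 15 against control, with a log2 fold change of 0.87 (SE 0.17, 1.83-fold, limma adjusted p = 0.0129). It was the 1 member called in that comparison, in which limma called 7.91% of probe sets, 1.70% as higher and 6.21% as lower. Against week 6 the week 15 value rose by 1.22 (SE 0.17, 2.32-fold, limma adjusted p = 0.000241), the largest change among the 8 genes in any comparison. Week 29 against week 15 gave -1.01 (SE 0.17, adjusted p = 0.000608). No difference between week 6, week 29 and control was called (limma adjusted p of 0.219 to 0.733), and week 15 differed from each. Week 6 against control was -0.34 (95% interval from -0.71 to 0.02). The week 15 difference from control was 0.87 again in a fit of those 6 arrays alone and was not called there (limma adjusted p = 0.0727). That fit called 135 of the 31042 probe sets, against 2455 in the fit of all groups. The mean Ereg signal stood at the 24.1th percentile of all probe sets, and no detection call was available to say whether it exceeded background.

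Areg encodes amphiregulin, an EGFR ligand with a heparin-binding part. Log2 signals of its probe set were 4.22, 4.94 and 4.11 in controls, 3.85, 3.99 and 4.15 at week 6, 4.19, 4.50 and 4.53 at week 15, and 3.84, 3.78 and 3.48 at week 29. All 3 week 29 arrays were below every array of the other groups, and control replicate 2 stood above the rest. Areg fell at week 29 against control, by 0.72 on the log2 scale (SE 0.19, limma adjusted p = 0.0304), and against week 15, by 0.71 (adjusted p = 0.013). Without control replicate 2 the difference of week 29 from control was -0.46 and was not called (limma adjusted p = 0.0556). The call was also lost without control replicate 1 or week 29 replicate 2 or 3, and in a fit of those 6 arrays alone (limma adjusted p = 0.0587). Without control replicate 1 or week 29 replicate 2 or 3, 274 to 769 probe sets were called, against 4705 with all arrays. Without control replicate 2 and in the 6 arrays alone, 4425 and 4208 were called. Week 15 against control was not called (-0.01, limma adjusted p = 0.974, and 0.25 without control replicate 2). Week 29 against week 6 was not called either (-0.30, limma adjusted p = 0.651), although these groups did not overlap. The mean Areg probe set signal stood at the 13.6th percentile of all probe sets, and no detection call was available to say whether it exceeded background.

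Hbegf encodes heparin-binding EGF-like growth factor, which binds EGFR and ERBB4. On the log2 scale its signal was 5.92, 6.51 and 5.86 in controls, 5.67, 5.92 and 6.00 at week 6, 5.80, 6.53 and 6.74 at week 15, and 5.47, 5.55 and 5.44 at week 29. The week 29 arrays lay below every other array, while controls, week 6 and week 15 overlapped. The SD of 3 arrays was 0.50 at week 15 and 0.06 at week 29. Hbegf fell at week 29 against week 15 (log2 fold change -0.87, SE 0.22, adjusted p = 0.00917). Week 29 against control was -0.61 (SE 0.22) and was not called (adjusted p = 0.0813). As for Areg, replicate 2 was the highest control array.

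Tgfa encodes transforming growth factor alpha, a ligand of EGFR. The brighter of its 2 probe sets gave 5.95, 5.49 and 5.75 in controls, 5.49, 5.36 and 5.56 at week 6, 5.80, 6.06 and 6.38 at week 15, and 5.41, 5.21 and 5.38 at week 29. Week 15 lay above weeks 6 and 29 on every array and overlapped the controls. Tgfa rose at week 15 against week 6, with a log2 fold change of 0.61 (SE 0.15, 1.52-fold, adjusted p = 0.00753). It fell at week 29 against week 15 (-0.74, SE 0.15, adjusted p = 0.00214). The dimmer probe set gave 0.64 and -0.61 in these 2 comparisons and was called in both. No comparison with control was called for either probe set. With the GAPDH difference as a covariate, the brighter probe set was at 0.62 for week 15 against week 6 and was not called (limma adjusted p = 0.0795).

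Btc encodes betacellulin, which binds EGFR and ERBB4. Its log2 signal stayed between 5.05 and 5.42 on all 12 arrays, with means of 5.22 ± 0.03 in control, 5.12 ± 0.06 in week 6, 5.25 ± 0.16 in week 15 and 5.24 ± 0.10 in week 29 arrays (SD, n = 3 each). Btc was called in none of the 6 comparisons. For week 15 against control the 95% interval of the log2 difference ran from -0.17 to 0.24. The mean Btc signal stood at the 29.7th percentile of all probe sets, that of Hbegf at the 41.8th and the brighter Tgfa probe set at the 37th. No detection call was available for these either.

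Egfr encodes the receptor that all 5 ligands bind. Its brightest probe set gave 10.00, 9.94 and 9.89 in controls, 9.21, 9.43 and 9.07 at week 6, 10.26, 9.87 and 10.53 at week 15, and 9.86, 9.23 and 9.09 at week 29. Controls spanned 0.11, and every week 6 array lay below them. At week 29, replicate 1 lay just under the lowest control and replicates 2 and 3 lay with week 6. Egfr rose at week 15 against week 6 (log2 fold change 0.98, SE 0.20, 1.98-fold, adjusted p = 0.00242) and fell at week 29 against week 15 (-0.83, SE 0.20, adjusted p = 0.00618). Neither was called with the GAPDH difference as a covariate (0.87 and -0.74, limma adjusted p = 0.0615 and 0.0607). Week 6 against control was -0.70 (SE 0.20) and missed the threshold (adjusted p = 0.0511), with an adjusted p of 0.0154 in a fit of those 6 arrays alone. Week 29 against control was -0.55 (adjusted p = 0.079). Without week 29 replicate 1 it was -0.78 and was called (limma adjusted p = 0.0109). That array, at 9.86, lay next to the lowest week 15 array, at 9.87.

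The 3 Egfr probe sets did not move alike. The second, with a mean log2 signal of 6.72, gave 0.97 for week 15 against week 6 and -1.21 for week 29 against week 15, both called. The third, at 4.22, moved by 0.01 and 0.07 in the same comparisons and was called in none of the 6. Its mean signal stood at the 14.9th percentile of all probe sets. The transcript that each probe set reads is not known here.

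**Figure D2:**
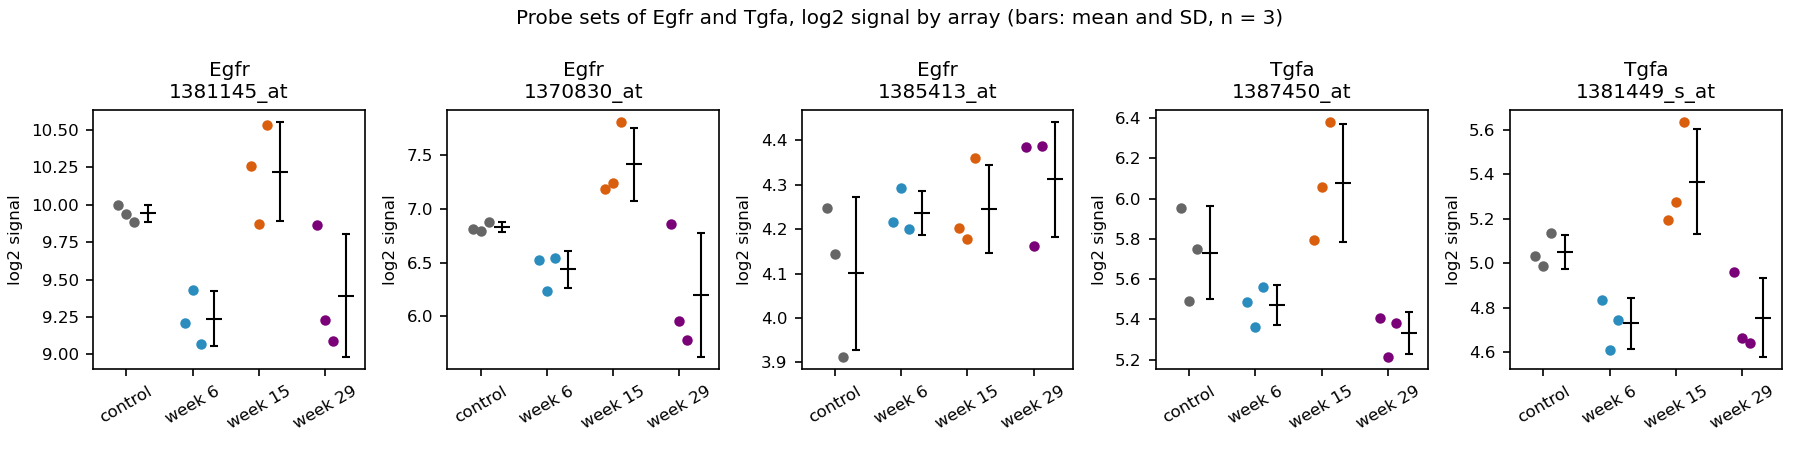
Log2 signal by array of the 3 Egfr and 2 Tgfa probe sets in controls and at weeks 6, 15 and 29, with mean and SD of 3 arrays; vertical scales differ between panels and do not start at 0. The brightest and second Egfr probe sets and both Tgfa probe sets have their highest mean at week 15, and the dimmest Egfr probe set does not.

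Erbb2 encodes the ERBB receptor without a ligand of its own. Arrays gave log2 signals of 8.61, 8.10 and 8.18 in controls, 7.84, 7.56 and 7.56 at week 6, 8.50, 8.57 and 8.77 at week 15, and 7.97, 7.64 and 7.37 at week 29. Weeks 6 and 29 lay below every control and every week 15 array, and week 15 overlapped the controls through control replicate 1. Erbb2 fell at week 6 against control (log2 fold change -0.64, SE 0.17, adjusted p = 0.0411), where limma called 7.54% of all probe sets, 2.44% as lower and 5.11% as higher, and no other member. It also fell at week 29 against control (-0.64, SE 0.17, adjusted p = 0.0284). At week 15 it rose against week 6 (0.96, SE 0.17, 1.95-fold, adjusted p = 0.000977), and week 29 against week 15 was -0.96 (adjusted p = 0.000885). The means of weeks 6 and 29 were 0.0044 apart (95% interval of week 29 minus week 6 from -0.36 to 0.37). Week 15 stood 0.32 above control (95% interval from -0.045 to 0.68) and was not called (adjusted p = 0.258). The week 6 call was lost without control replicate 1 or 3, any week 6 replicate or week 29 replicate 2, at limma adjusted p-values of 0.0594 to 0.139 and log2 fold changes of -0.48 to -0.73. Without control replicate 1 or 3 or any week 6 replicate, 1 to 57 of the 31042 probe sets were called at all, against 2342 with all arrays. The week 29 call was lost without control replicate 1 or 3 or week 29 replicate 2 or 3, and in the 6 arrays alone (limma adjusted p of 0.055 to 0.13), at log2 fold changes of -0.48 to -0.70. Those left-out fits called 274 to 976 probe sets, against 4705 with all arrays, and the 6 arrays alone gave 4208. With the GAPDH difference as a covariate the week 29 call was also lost (-0.57, limma adjusted p = 0.209), in a fit that called 132 probe sets, against 4705 without the covariate.

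Erbb3 encodes the neuregulin receptor that signals through partners. Its log2 signal was 6.43, 6.64 and 6.67 in controls, 6.34, 5.91 and 6.50 at week 6, 6.98, 7.03 and 6.80 at week 15, and 6.48, 6.26 and 6.40 at week 29. The week 15 arrays lay above all others, and week 6 and week 29 overlapped the controls. Erbb3 rose at week 15 against week 6 (log2 fold change 0.69, SE 0.14, 1.61-fold, adjusted p = 0.00265) and fell at week 29 against week 15 (-0.55, SE 0.14, adjusted p = 0.00878). Week 15 against control was 0.36 (SE 0.14) and was not called (adjusted p = 0.137).

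Promoter sequences are given for Areg, Egfr and Erbb2, because Egfr and Erbb2 had like patterns over the arrays while Areg was the 1 of these 3 whose difference between weeks 15 and 6 was not called. That Areg difference was 0.41 (limma adjusted p = 0.116). It was called in the 6 arrays alone, with the GAPDH difference as a covariate and without control replicate 2 (limma adjusted p = 0.0451, 0.0169 and 0.0293). Whether Areg differed from Egfr or Erbb2 in this was not tested. RefSeq (GRCr8) held a promoter, 250 bases before to 50 after the start, for 6 of the 8 genes, which leaves Ereg and Erbb3. Both strands were searched for 5 motifs, which are in capitals. They were the GC box GGGCGG, the cyclic AMP response element (CRE) with letters TGACGTCA, the AP-1 motif, spelled TGANTCA, the TATA box TATAAA and the CCAAT box. None overlaps another in the windows shown. The windows are chr14:17265592-17265891 (minus strand) for Areg, chr14:95378376-95378675 (plus strand) for Egfr and chr10:83907351-83907650 (plus strand) for Erbb2.
Areg: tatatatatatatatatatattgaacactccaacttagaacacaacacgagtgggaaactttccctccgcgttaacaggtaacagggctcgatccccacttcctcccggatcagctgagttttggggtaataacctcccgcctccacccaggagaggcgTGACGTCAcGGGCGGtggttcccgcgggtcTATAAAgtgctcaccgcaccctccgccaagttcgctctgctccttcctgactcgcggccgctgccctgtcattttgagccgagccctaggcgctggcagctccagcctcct
Egfr: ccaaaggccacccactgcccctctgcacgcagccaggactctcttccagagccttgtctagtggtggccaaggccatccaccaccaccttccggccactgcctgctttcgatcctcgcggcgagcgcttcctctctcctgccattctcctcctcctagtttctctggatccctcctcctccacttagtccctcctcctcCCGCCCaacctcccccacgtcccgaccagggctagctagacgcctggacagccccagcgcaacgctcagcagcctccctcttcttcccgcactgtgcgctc
Erbb2: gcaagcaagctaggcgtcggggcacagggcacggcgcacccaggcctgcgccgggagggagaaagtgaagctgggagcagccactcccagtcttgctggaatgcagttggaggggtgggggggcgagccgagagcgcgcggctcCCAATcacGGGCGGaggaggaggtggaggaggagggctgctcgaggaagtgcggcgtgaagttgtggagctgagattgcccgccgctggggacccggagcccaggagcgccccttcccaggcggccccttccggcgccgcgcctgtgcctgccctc
In Areg a CRE begins 91 bases before the start, with a GC box at 82 and a TATA box at 61 bases. Egfr has a GC box at 51 bases, on the other strand, and Erbb2 has one at 98 bases with a CCAAT at 106. Neither the CRE nor the TATA box was found in the windows of the other 5 genes, and the AP-1 motif in none of the 6. Of 27457 rat promoters of this length, 1.91% hold the CRE, 14.3% the TATA box, 34.9% the GC box, 37.7% the CCAAT box and 7.33% the AP-1 motif. A match describes the letters only.

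The stages were compared with control and with each other, to ask when in tumor development ligands and receptors differ. At week 6, 1 of the 8 genes was lower than in controls and 0 were higher, against 2.44% of all probe sets called lower and 5.11% called higher. The median log2 fold change of the 8 genes was -0.33, beside -0.02 over all probe sets. At week 15, 1 was higher and 0 were lower (median 0.30, beside 0.06), against 1.70% and 6.21% of all probe sets. At week 29, 2 were lower (Areg and Erbb2) and 0 were higher (median -0.47, beside 0.04), and limma called 15.2% of all probe sets, 7.44% as lower and 7.72% as higher. For these 3 comparisons, which share their controls, the groups of 4, 2 and 5 members did not overlap, in the direction of the calls. Such separation was found for 17.2% (week 6, lower), 13.2% (week 15, higher) and 15.7% (week 29, lower) of probe sets.

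The calls were more frequent between week 15 and each other NMBA stage, and absent between weeks 29 and 6. Week 15 against week 6 gave 5 higher members of 8 (Ereg, Tgfa, Egfr, Erbb2 and Erbb3) and 0 lower, with a median of 0.65 beside 0.08 over all probe sets. Limma called 37.8% of all probe sets there, 20.3% as higher and 17.4% as lower. The groups of 6 members did not overlap, with week 15 above week 6, as for 27.8% of all probe sets. Areg and Hbegf were at 0.41 and 0.49 and were not called (adjusted p = 0.116 and 0.102). Week 29 against week 15 gave 7 lower members of 8, 4 ligands and the 3 receptors, with Btc the exception (-0.01, adjusted p = 0.963). The median was -0.79 beside -0.02, and limma called 35.4% of all probe sets, 18.3% as lower and 17.1% as higher. The groups of these 7 did not overlap, as for 23.2% of all probe sets. In week 29 against week 6, limma called 0 members and 0% of probe sets. No member had an unadjusted p under 0.05 there, while 3005 of the 31042 probe sets did. The widest 95% interval in that comparison was that of Hbegf, from -0.86 to 0.11, so differences of this size were not excluded.

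**Figure D3:**
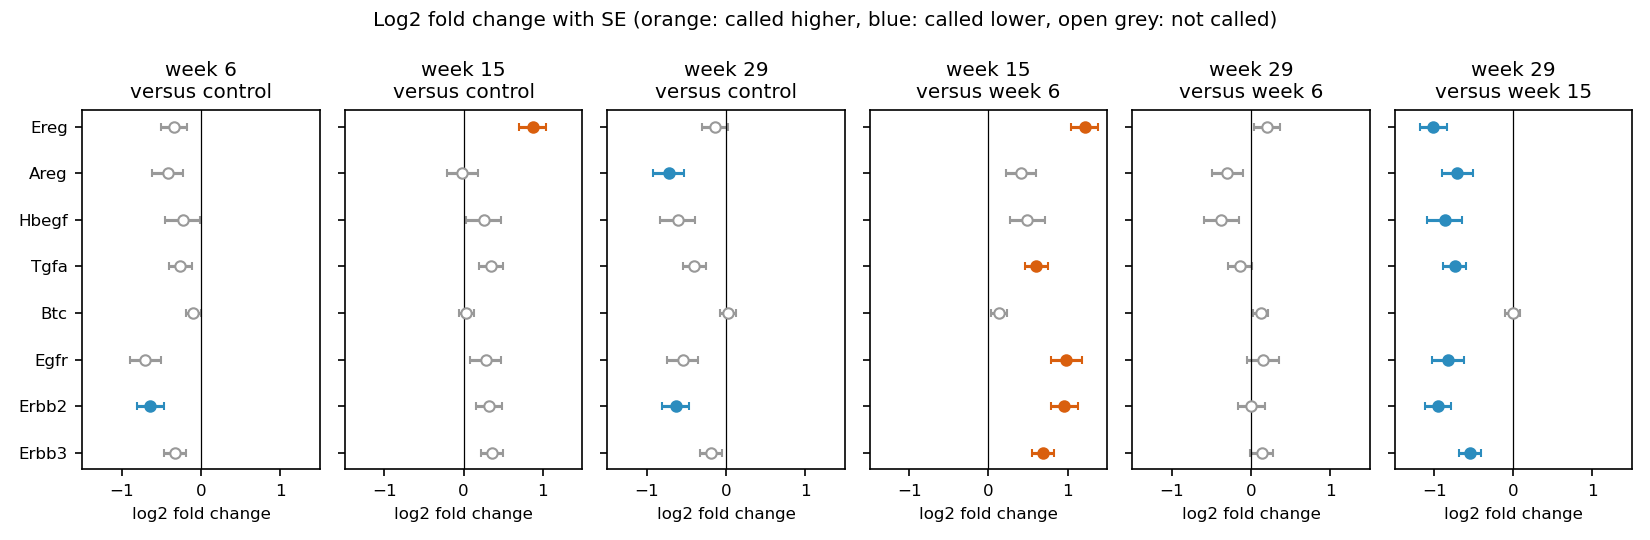
Log2 fold change of each gene in the 6 comparisons, with SE; filled orange points were called higher, filled blue points called lower and open grey points not called (limma, adjusted p under 0.05). Week 15 against week 6 has 5 orange points, week 29 against week 15 has 7 blue points, and week 29 against week 6 has none filled.

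Between week 15 and the other NMBA stages, epithelial markers moved in the direction of the members' calls and skeletal muscle markers in the opposite one. Of the 9 epithelial markers, 9 rose at week 15 against week 6 and 9 fell at week 29 against week 15, with medians of 1.16 and -1.41. At week 29 against control 8 of the 9 fell, and 2 did at week 6. Of 15 skeletal muscle markers, 13 fell at week 15 against week 6 and 10 rose at week 29 against week 15. Over the 12 arrays, Pearson's r with the epithelial score was 0.97 for Erbb2, 0.91 for Egfr, 0.88 for Tgfa, 0.79 for Ereg, 0.75 for Areg and Erbb3, 0.71 for Hbegf and 0.10 for Btc. With the skeletal muscle score r was -0.84 for Ereg and Egfr, -0.79 for Tgfa and -0.78 for Erbb2. It was -0.58 for Erbb3, -0.56 for Hbegf, -0.44 for Areg and -0.01 for Btc. With the basal keratinocyte score (8 markers) r was 0.96 for Egfr, 0.94 for Erbb2, -0.02 for Btc and 0.58 to 0.75 for the others. With the suprabasal score (12 markers) r was 0.92 for Erbb2, 0.91 for Tgfa, 0.18 for Btc and 0.77 to 0.82 for the others. With the GAPDH difference r was 0.72 for Erbb2 and 0.71 for Egfr. The fibroblast score, over 7 genes, was lowest at week 15, at 9.87 ± 0.29. It was 10.70 ± 0.17 at week 6, 10.55 ± 0.26 at week 29 and 10.94 ± 0.42 in controls (SD, n = 3 each). Its r was -0.75 with Ereg and -0.28 to -0.54 with the other members. The Schwann cell score, over 2 genes, was also lowest at week 15, at 6.66 ± 0.15. It was 7.35 ± 0.15 at week 6, 7.67 ± 0.29 at week 29 and 7.47 ± 0.07 in controls. Its r was -0.75 for Ereg, -0.73 for Egfr, 0.02 for Btc and -0.52 to -0.72 for the others. The part of these markers in the members' differences was not tested, beyond the covariate fits given here. These values describe arrays that share their groups and tissue mix, and members and score come from the same arrays. Week 29 replicate 1 had the highest epithelial score of its group (10.81, against 10.04 and 9.86) and also its highest signal of every member but Hbegf and Btc.

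With the epithelial score as a covariate, an alternative chosen after seeing the data, no member was called in any comparison. Nearly all calls on the array were lost with it, and 0 of the 31042 probe sets were called at week 6 against control, week 15 against week 6 and week 29 against week 15, 2 at week 29 against control and 326 at week 15 against control. The loss is thus not particular to the members, and the score itself differs between the groups. At week 15 against control, Ereg was at 0.73 (SE 0.18, limma adjusted p = 0.0809) and Erbb3 at 0.33 (SE 0.17), beside 0.87 and 0.36 without the covariate. Egfr was at 0.0079 (SE 0.18) and Erbb2 at 0.044 (SE 0.12), beside 0.28 and 0.32 without it. At week 29 against week 15, Erbb2 was at -0.02 (SE 0.23), Egfr at 0.10 (SE 0.34), Ereg at -0.52 (SE 0.35), Hbegf at -0.64 (SE 0.51) and Erbb3 at -0.46 (SE 0.32). With the skeletal muscle score instead, 0 members were called at week 15 against week 6 and 1, Erbb3, at week 29 against week 15 (-0.86, SE 0.20, limma adjusted p = 0.0304). In those 2 comparisons 9 and 1936 of all probe sets were called, against 11723 and 10987 without the score. At week 15 against week 6 the muscle score put Erbb3 at 1.10 (SE 0.24) and Ereg at 1.02 (SE 0.33), beside 0.69 and 1.22. Erbb2, Egfr and Tgfa were at 0.62, 0.27 and 0.22, beside 0.96, 0.98 and 0.61. Btc, Areg and Hbegf were at 0.43, 0.33 and 0.19, beside 0.13, 0.41 and 0.49. Whether a member changed per epithelial cell was not tested.

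**Figure D4:**
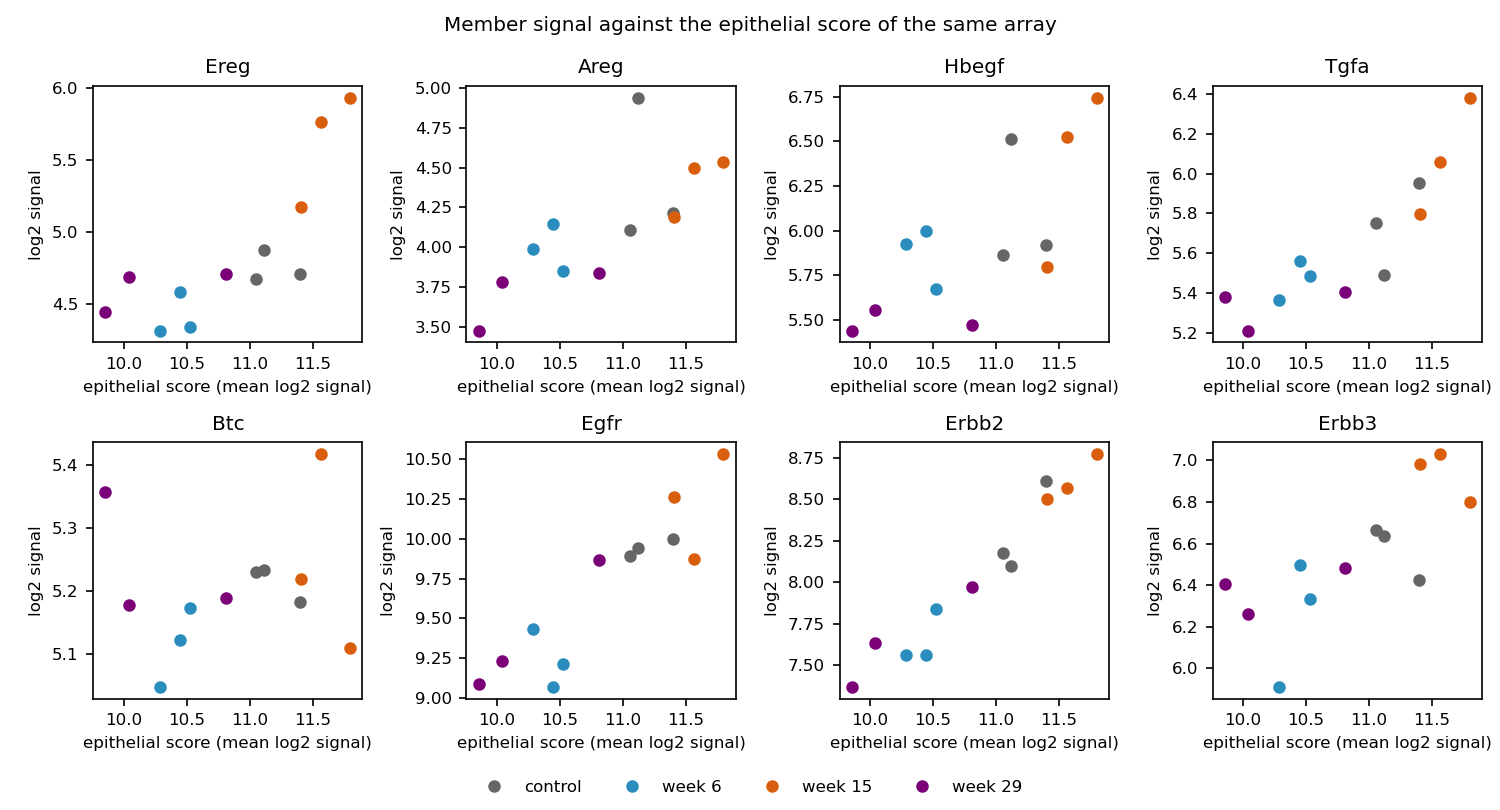
Log2 signal of each gene against the epithelial score (mean log2 signal of 9 epithelial markers) of the same array, 12 arrays coloured by group; scales differ between panels and do not start at 0. Erbb2 runs close to a line with the score (r 0.97), the 3 week 15 points of Ereg lie above all others, and Btc shows no such relation (r 0.10).

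Of 71 other genes of the pathway, in 5 lists, 58 were measured by a single-symbol probe set. At week 6 against control 2 of the 58 were higher and 5 lower, at week 15 against control 4 and 1, and at week 29 against control 4 and 11. Over all probe sets, 5.11% were higher and 2.44% lower at week 6, 1.70% and 6.21% at week 15, and 7.72% and 7.44% at week 29. Week 15 against week 6 gave 21 higher and 9 lower (median 0.24, beside 0.08 over all probe sets), and week 29 against week 15 gave 8 higher and 21 lower (median -0.23, beside -0.02). All probe sets gave 20.3% higher and 17.4% lower in the first of these comparisons, and 17.1% higher and 18.3% lower in the second. No gene of the 58 was called in week 29 against week 6. Left-out and covariate fits are not given for single genes of these lists. At week 6 against control, fits without control replicate 1 or 3 or any week 6 replicate called 1 to 57 probe sets. The fit with the GAPDH difference as a covariate called 8 there, against 2342 in the fit of all arrays.

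Among other ligands and the remaining receptor, 5 of 6 were measured. Nrg4, a neuregulin that binds ERBB4, rose at week 15 against control (log2 fold change 0.75, SE 0.17, adjusted p = 0.0201). It had log2 signals of 6.89, 6.43 and 6.64 in controls, 6.42, 6.34 and 6.19 at week 6, 7.16, 7.22 and 7.83 at week 15, and 6.28, 6.23 and 6.18 at week 29, with week 15 above every other array. Nrg2, a neuregulin ligand of ERBB3 and ERBB4, rose at week 15 against week 6 (0.59) and fell at week 29 against week 15 (-0.74). Egf, the founding ligand of the family, moved the other way. It fell at week 15 against week 6 (-0.65, SE 0.17, adjusted p = 0.00921), rose at week 29 against week 15 (0.64, adjusted p = 0.00981), and gave 6.30, 6.73 and 7.02 at week 15 against 7.28, 7.49 and 7.22 at week 6. Nrg1 and Erbb4 were called in no comparison, and log2 signals of Erbb4 lay between 3.39 and 4.21.

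Of the genes that process ligands, Rhbdf1 and Rhbdf2, the iRhom partners of the sheddase ADAM17, both fell at week 6 against control (-0.45 and -0.46, adjusted p = 0.029 and 0.0475). Rhbdf1 had log2 signals of 10.18, 10.04 and 10.36 at week 15, above controls at 9.66, 9.84 and 9.71, and rose by 0.46 (SE 0.11, adjusted p = 0.0229). It was also above week 6 by 0.91 (adjusted p = 9.97e-05). Adam17, the protease that releases most of these ligands, fell at week 29 against control (-0.40, SE 0.11, adjusted p = 0.036) and against week 15 (-0.43). Of the 4 measured genes of this list, 3 rose at week 15 against week 6 and 3 fell at week 29 against week 15, and the exception was Adam10, another sheddase. Of all probe sets, 20.3% were called higher in the first comparison and 18.3% lower in the second.

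In the signalling core, 16 of 24 genes were measured and the calls ran both ways. Week 15 against week 6 gave 3 higher and 5 lower of the 16, where all probe sets gave 20.3% higher and 17.4% lower. Nras, a RAS GTPase, and the adaptor gene Shc1 rose by 0.72 and 0.39. Ptpn11, the phosphatase SHP2, and Map2k1, a MAP kinase kinase, fell by 0.88 and 0.63. Ptpn11 was lower at week 15 than in controls (-0.48, adjusted p = 0.0333) and higher at week 29 (0.41, adjusted p = 0.0435). Plcg1, phospholipase C gamma, fell at week 6 and week 29 against control (-0.63 and -0.66), and Stat3, a transcription factor of cytokine and growth factor signalling, fell at week 29 (-0.40). Akt2, a kinase of the PI3 kinase arm, rose at week 29 against week 15 (0.72).

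Negative regulators, 15 of 18 measured, were also mixed. Lrig1, a transmembrane protein that promotes EGFR degradation, rose at week 6 (0.52, SE 0.14, adjusted p = 0.0413) and week 29 (0.50, adjusted p = 0.0305) against control. Arrays gave log2 signals for it of 9.46, 9.96 and 9.36 in controls, 10.23, 10.09 and 10.00 at week 6, 9.32, 9.25 and 9.34 at week 15, and 10.02, 10.11 and 10.15 at week 29. The order of these groups was the reverse of that of Erbb2, with weeks 6 and 29 above every control and week 15 below. Its relative Lrig3 rose at week 15 against control (0.84, SE 0.24, adjusted p = 0.049) and fell at week 29 against week 15 (-1.20). Cbl, a ubiquitin ligase for EGFR, rose at week 15 against week 6 (0.50), while Spry2, a Sprouty inhibitor of receptor signalling, fell (-0.45). Errfi1, the EGFR inhibitor MIG6, fell at week 29 against week 15 (-0.55, adjusted p = 0.0187). Dusp5, a MAP kinase phosphatase, fell at week 29 against control (-0.61), as did the phosphatase gene Ptpn12 (-0.41). Dusp6, a phosphatase of ERK induced by the pathway, was called in no comparison.

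All 18 listed transcriptional targets were measured. Week 15 against week 6 gave 10 higher and 1 lower, where all probe sets gave 20.3% and 17.4%. Week 29 against week 15 gave 1 higher and 8 lower, where all probe sets gave 17.1% and 18.3%. Epha2, an ephrin receptor, fell at week 6 (-0.76, SE 0.15, adjusted p = 0.0221) against control and rose at week 15 against week 6 (0.97). Ccnd1, cyclin D1, fell at week 6 (-0.69) and week 29 (-1.03, SE 0.16, adjusted p = 0.00753) against control, and its log2 signals were 10.06, 9.93 and 9.48 at week 29 against 10.88, 10.86 and 10.81 in controls. Ier3, an early response gene, fell at week 29 against control (-0.70) and against week 15 (-1.12). Junb, an AP-1 subunit, rose at week 15 against week 6 (0.91) and fell at week 29 against week 15 (-1.19). Jun, another AP-1 subunit, was the exception, higher at week 6 (0.77, adjusted p = 0.0209) and week 29 (0.49) than in controls and lower at week 15 than at week 6 (-0.73). Ehf, an epithelial ETS factor, rose at week 15 against control (0.84, adjusted p = 0.0312), and Hmga2, a chromatin protein, rose at week 29 (0.33).

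**Figure D5:**
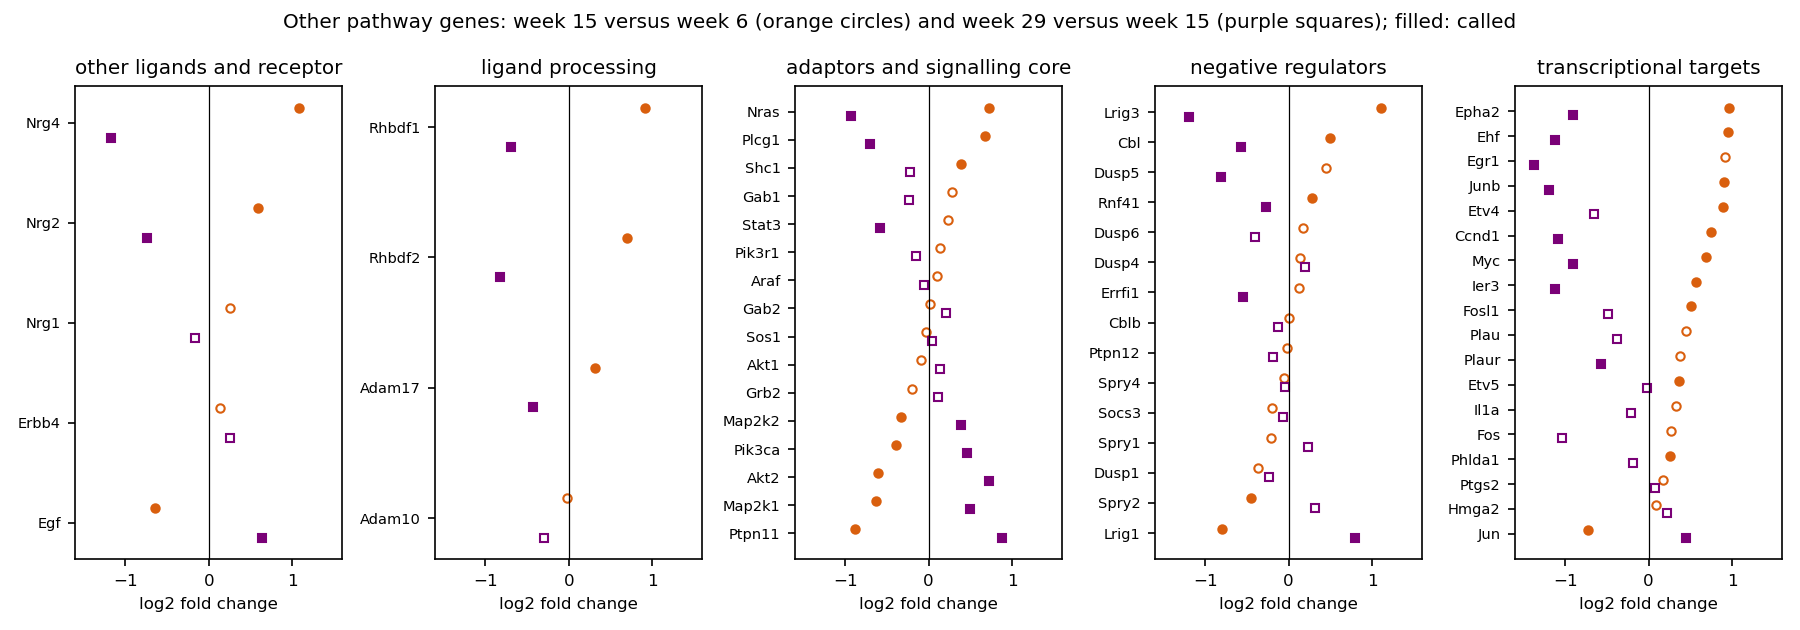
Log2 fold change of the 58 other measured pathway genes, by list, for week 15 against week 6 (orange circles) and week 29 against week 15 (purple squares), which share the week 15 arrays; filled symbols were called. Rhbdf1, Rhbdf2 and Nrg4 lie to the right for the first comparison, and Lrig1, Egf, Ptpn11 and Jun lie to the left.

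For each member the genes of most similar pattern were sought by Pearson's r over the 12 arrays, as a description of arrays that share groups and tissue mix. Egfr ran closest to Nono, an RNA-binding protein gene (r 0.99), Afap1l2 (0.98) and Src, a tyrosine kinase (0.98). Nearest to Erbb2 were Fam83h, Coro1b and Rpl27a, at 0.99 each, and nearest to Erbb3 were Serpina3m (0.92), Bbox1 (0.92) and Samd12 (0.90). Tgfa ran closest to Fam110a, Scnn1b, a sodium channel subunit, and Arrdc4 (0.98, 0.98 and 0.97). Mfsd13a, Zc3h3 and Ppp1r13l had 0.96, 0.96 and 0.94 with Ereg. Areg was nearest to Cldn4, a tight junction claudin that is also 1 of the 9 epithelial markers (0.97), Rab11fip1 (0.93) and Padi1 (0.92). Hbegf was nearest to the copper transporter gene Slc31a2 (0.95), Mxd1 (0.93) and the connexin gene Gjb6 (0.92). The values of Btc were lower, at 0.90, 0.90 and 0.89 for Stac2, Adrb1 and Chad. Among members, Areg and Hbegf had 0.90 with each other and Egfr and Erbb2 had 0.91.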

How the data were processed

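Total RNA of 12 rat esophageal samples was hybridised to an Affymetrix array, 1 array a sample. The values are deposited log2 probe set signals, which came from Affymetrix Expression Console per the submitters' notes. The summarizing method, software version and filters were not given in the sources used here. Deposited values spanned 2.49 to 14.71, from which the log2 scale was read. Array medians were 6.41 to 6.48 and within-group r was 0.985 to 0.997. A pair of arrays had 7 to 47 identical values. The 57 array control probe sets were not tested. The platform annotation named 1 gene for 20826 probe sets and several genes for 436, with 9780 not listed. The brightest probe set stood for a gene. Without detection calls, signal over background could not be judged, and precision is limited by the number of arrays.

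Groups came from the sample titles. Values were used as deposited, in 1 limma fit of the 4 groups (limma 3.58.1, R 4.3.3, lmFit and eBayes, 8 residual degrees of freedom, two-sided), with Benjamini-Hochberg adjustment over 31042 probe sets and calls under 0.05. The fit was tested on simulated data. That simulation had independent noise and few altered probe sets, so it does not speak to shifts shared by many probe sets. Members, lists and comparisons were chosen with earlier results of these data known. Named genes were all members, 7 pathway genes in any case (Egf, Nrg1, Erbb4, Adam17, Errfi1, Lrig1 and Dusp6), from each list the 2 lowest p-values per direction among those called, and the 3 genes of highest r per member. Epgn, also on that list, had no probe set with its symbol alone and is not analysed here. Alternatives were other normalizations, a dim filter, a 1.5-fold minimum, covariates, 6-array fits, left-out replicates, a replicate block, another variance model and averaged probe sets. Promoters are RefSeq's (GRCr8).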

Additional observations from a re-analysis of the deposited data

Results flagged for a closer look

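The NMBA difference from control changed between stages for these members, by the test of the difference itself (limma, adjusted p under 0.05). Between weeks 15 and 6 it differed by 1.22 on the log2 scale for Ereg, 0.61 for Tgfa, 0.98 for Egfr, 0.96 for Erbb2 and 0.69 for Erbb3. Between weeks 29 and 15 it differed by -1.01 for Ereg, -0.71 for Areg, -0.87 for Hbegf, -0.74 for Tgfa, -0.83 for Egfr, -0.96 for Erbb2 and -0.55 for Erbb3. These are the same values as in the comparisons between stages, since the controls cancel. Groups of 3 arrays were not searched for outlying samples.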

How the results depend on the processing

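Every alternative was run for the counts of members called and for each member. Array median subtraction, a 1.5-fold minimum, an intensity trend with robust variance and averaged probe sets kept each count within 1.5 times. Week 6 against control (1 called) gave 2 after quantile normalization, on probe sets above the median signal, in the 6 arrays alone and without the week 15 arrays, and 0 with the muscle score, GAPDH difference or epithelial score as covariate. Week 15 against control (1) gave 0 on probe sets above the median, with the muscle or epithelial score, and in the 6 arrays alone. Week 29 against control (2) gave 1 above the median, 1 in the 6 arrays alone (Hbegf), 0 with the epithelial score, 2 with the GAPDH difference (Hbegf in place of Erbb2) and 4 without the week 15 arrays (Hbegf and Tgfa added). Week 15 against week 6 (5) gave 3 above the median and 0 with either score. It gave 5 with the GAPDH difference, with Areg and Hbegf in place of Tgfa and Egfr (limma adjusted p = 0.0169, 0.00901, 0.0795 and 0.0615). Week 29 against week 15 (7) gave 3 above the median, 1 with the muscle score and 0 with the epithelial score. With the GAPDH difference Egfr was not called there (limma adjusted p = 0.0607). That covariate left 4849 and 6915 of all probe sets called in these comparisons, against 11723 and 10987 without it. The F test (7) gave 3 above the median and with the GAPDH difference, and 0 with either score. The filter on dim probe sets left only Egfr, Erbb2 and Erbb3, which bounds its counts at 3. Calls over all probe sets fell with the scores too (11723 without and 9 with the muscle score for week 15 against week 6). For the other settings the cause was not tested. The epithelial score and the omission of the week 15 arrays were chosen after seeing the data.

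Leaving out 1 array at a time gave 0 to 2, 1 to 1 and 0 to 3 members for weeks 6, 15 and 29 against control, 5 to 6 for week 15 against week 6, 0 to 0 for week 29 against week 6, 6 to 7 for week 29 against week 15 and 5 to 7 for the F test. With the replicate number as a block, the 6 comparisons gave 1, 1, 2, 5, 0 and 7 members, as without it, and no member's call changed. Same-numbered arrays did not deviate together (r from -0.41 to 0.29), so the numbers were not taken as pairs.

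Signs turned for these log2 differences, of which those of Erbb2 at week 29 against control and Egfr at week 29 against week 15 had been called. With the epithelial score, week 6 against control was 0.0095 for Tgfa, week 29 against control 0.21 for Ereg, -0.091 for Btc, 0.10 for Egfr and 0.022 for Erbb2, and week 29 against week 15 0.096 for Egfr. After quantile normalization Btc was at -0.033 and -0.023 for weeks 15 and 29 against control and 0.0099 for week 29 against week 15, which was 0.044 after median subtraction. At week 29 against control Btc was at 0 with the muscle score and -0.046 with the GAPDH difference. The muscle score put Egfr at -0.19 for week 15 against control, and Egfr and Erbb2 at -0.024 and -0.082 for week 29 against week 6. There, Erbb2 was at -0.014 with the GAPDH difference and Egfr at -0.0032 with averaged probe sets. Left-out arrays moved Areg from -0.17 to 0.25 and Btc from -0.051 to 0.10 at week 15 against control, and Btc from -0.032 to 0.057 at week 29 against control. At week 29 against week 6 they moved Erbb2 from -0.15 to 0.15, Erbb3 from -0.034 to 0.26 and Egfr from -0.080 to 0.31. At week 29 against week 15 Btc ran from -0.077 to 0.077.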
